A study of Homo sapiens with 20 samples.

Results

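The genes of the YAP and TEAD pathway were examined in the H3K27ac profiles of HCT-116 cells, an established human colorectal cancer line. The 9 genes were the targets CCN1 and CCN2, the regulators AMOTL2, LATS2 and AJUBA, the co-activator genes YAP1 and WWTR1, and the DNA-binding factors TEAD1 and TEAD4, of 20033 protein-coding genes in all. For each gene, peaks and super-enhancers (SEs) were collected from a window that covered the gene body and 50 kb on each side in hg38. Acetylation of histone H3 at lysine 27 marks active promoters and enhancers, and SEs are long stretches in which enhancers lie close together. Cells were wild type (WT) or FBXW7−/− (KO), in which the gene of an F-box protein that marks other proteins for degradation is lost. They received esiRNA, a pool of short interfering RNAs made by enzymatic digestion, for 48 h as a control (esiCT) or against the class IIa histone deacetylase HDAC4 (esiHDAC4). During the final 24 h cells either stayed without drug (UNT) or received oxaliplatin (OXPT), a DNA-crosslinking platinum compound, at 50 µM. Each of the 8 combinations had 2 libraries, named replicates A and B, so that 16 libraries were compared. Per the labels, chromatin of 3 independent experiments was combined, and how these relate to the letters is not stated. Both lines came from a commercial supplier, and whether the KO line is 1 clone is not stated, so that other differences between the lines cannot be told apart from the loss of FBXW7.

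YAP (encoded by YAP1) and TAZ (encoded by WWTR1) are co-activators without a DNA-binding domain of their own. They act in the nucleus by binding TEAD factors, which recognise the motif GGAATG in promoters and distal enhancers, often near AP-1 motifs. The Hippo kinases, among them LATS2, phosphorylate YAP and TAZ and keep them in the cytoplasm, and in colorectal epithelium the pathway is known for its part in regeneration and tumour growth. CCN1 and CCN2 encode secreted matricellular proteins that serve as common readouts of YAP and TEAD activity. AMOTL2, an angiomotin family protein that holds YAP at cell junctions, and LATS2 are both targets and inhibitors of YAP, so they form a feedback. AJUBA, a LIM-domain scaffold protein, binds LATS kinases and restrains them.

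Lists of peaks differed in length, from 1752 peaks in KO esiHDAC4 UNT B to 27927 in WT esiCT UNT A, on chromosomes 1 to 22, X and Y. The 4 KO replicate B lists were the shortest, with 1752 to 8216 peaks, while the 4 KO replicate A lists held 12639 to 21875 and the WT lists 10562 to 27927. The study states a minimum number of reads per sample, but the deposited lists give no read totals, so the depth of each library is unknown here. A gene without a peak in a short list was not detected there, which does not show that its acetylation was absent. Start sites of the epithelial genes EPCAM, KRT8 and KRT19 carried a peak in 15 libraries each, KRT18 in 16 and CDH1 in 8. The leukocyte genes PTPRC, CD3E and CD14 carried none in any library. Of the fibroblast genes, COL1A2 carried none, PDGFRB 1 in 1 library and COL1A1 a peak in 11 libraries. The lists cannot check the labels of the targeted genes, since H3K27ac peaks at a start site do not read the gene's protein. Such peaks were found at FBXW7 in 10 and at HDAC4 in 9 of the 16 libraries.

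The promoters of the pathway show where TEAD motifs lie relative to the acetylated regions. The bases just upstream of the start were read from RefSeq sequences on GRCh38.p14, which held 6 of the 9 genes (CCN2, AMOTL2, LATS2, AJUBA, YAP1 and WWTR1). GGAATG was searched on both strands, so that its reverse complement CATTCC also counted, and so was the AP-1 motif TGANTCA, which is its own reverse complement. Within the 250 bases upstream of the start, GGAATG was present in 11.9% and TGANTCA in 6.57% of 35116 promoters. The promoter of CCN2 held GGAATG 3 times, where 0.0826% of promoters held it at least that often, and it is shown because no library had a peak there. The promoters of YAP1 and of inner starts of AMOTL2 and AJUBA held it 1 time each, and they are shown because peaks covered these starts. Motif matches are in capitals and the sequences run 5′ to 3′ on the strand of the gene.
CCN2 promoter (chr6:131951373-131951622, minus strand): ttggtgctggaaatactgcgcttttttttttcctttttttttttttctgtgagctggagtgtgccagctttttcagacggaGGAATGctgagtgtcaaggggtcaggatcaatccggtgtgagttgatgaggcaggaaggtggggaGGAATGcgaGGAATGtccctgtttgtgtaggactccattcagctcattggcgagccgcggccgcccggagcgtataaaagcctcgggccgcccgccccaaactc
YAP1 promoter (chr11:102110197-102110446, plus strand): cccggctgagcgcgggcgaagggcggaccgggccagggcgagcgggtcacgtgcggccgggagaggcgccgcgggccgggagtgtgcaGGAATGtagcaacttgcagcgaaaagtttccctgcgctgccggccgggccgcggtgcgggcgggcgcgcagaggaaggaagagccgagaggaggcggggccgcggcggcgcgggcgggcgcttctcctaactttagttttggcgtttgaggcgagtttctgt
AMOTL2 promoter (chr3:134374448-134374697, minus strand): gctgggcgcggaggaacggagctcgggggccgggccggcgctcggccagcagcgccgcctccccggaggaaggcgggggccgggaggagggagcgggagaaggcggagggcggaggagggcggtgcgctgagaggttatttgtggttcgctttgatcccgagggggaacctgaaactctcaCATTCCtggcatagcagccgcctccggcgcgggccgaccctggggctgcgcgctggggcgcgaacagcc
AJUBA promoter (chr14:22976843-22977092, minus strand): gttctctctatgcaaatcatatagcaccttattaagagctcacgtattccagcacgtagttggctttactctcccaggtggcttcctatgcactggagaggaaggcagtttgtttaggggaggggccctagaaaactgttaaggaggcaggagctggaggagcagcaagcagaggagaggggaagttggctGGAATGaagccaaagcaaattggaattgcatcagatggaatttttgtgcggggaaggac

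The 9 genes divided by their level of H3K27ac peaks. YAP1, WWTR1 and TEAD1 carried at least 1 peak in all 16 libraries, as 5.82% of all gene windows did. YAP1 had between 1 and 19 peaks in a library (median 13), TEAD1 between 2 and 18, and WWTR1 between 1 and 13 (median 9.5). AJUBA carried a peak in 15 libraries, AMOTL2 in 13, CCN1 in 11 and LATS2 in 10. CCN2 carried a peak in 2 libraries only, WT esiHDAC4 UNT B and WT esiHDAC4 OXPT B, with folds of 2.99 and 2.93 and none at its start site. Fold here is the peak summit over the local background as the authors' peak caller gave it. The windows differ in length, from 103.197 kb at CCN2 to 370.317 kb at TEAD1, and longer windows can hold more peaks. Peaks over all 9 windows numbered 5 to 67 per library, or 2.22 to 4.57 per 1000 peaks of the library.

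**Figure D1:**
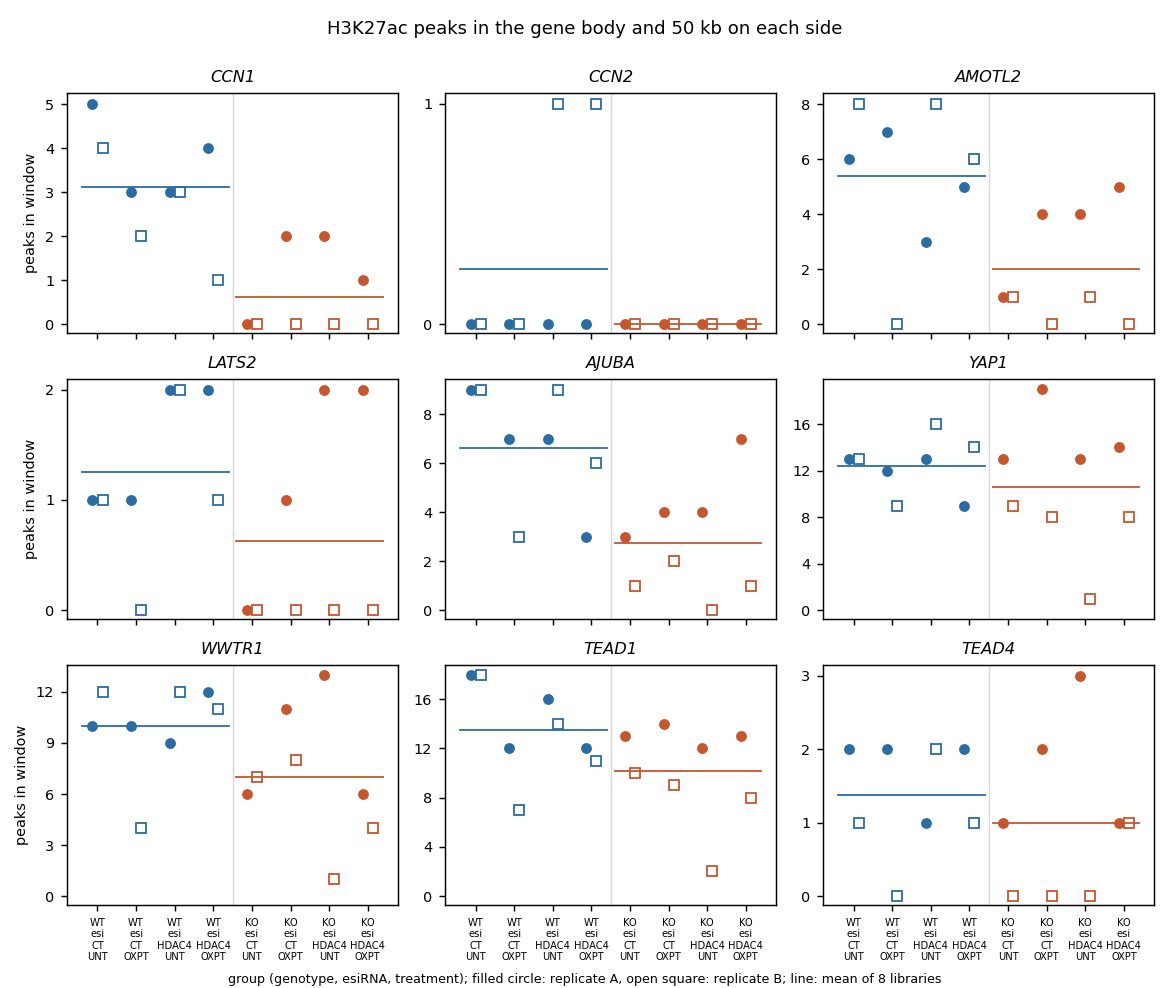
Number of H3K27ac peaks (vertical axis) in the window of each of the 9 genes, by group (horizontal axis), with filled circles for replicate A, open squares for replicate B, WT in blue, KO in orange and lines at the mean of 8 libraries. At CCN1 the WT libraries had 1 to 5 peaks and the KO libraries 0 to 2, while at YAP1 the KO replicate A libraries had 13 to 19 and the KO replicate B libraries 1 to 9.

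CCN1 was the member whose peak number was lower in KO cells by the test across all gene windows. The 4 WT replicate A libraries had 5, 3, 3 and 4 peaks in its window and the 4 KO replicate A libraries 0, 2, 2 and 1. The 4 WT replicate B libraries had 4, 2, 3 and 1, and the 4 KO replicate B libraries had none. Within each letter no KO library reached the lowest WT library. The share of all gene windows separated like this in both letters at once was not counted. The CCN1 window also reaches a start of DDAH1, whose region (chr1:85576054-85577456) was called in 5 WT and 1 KO libraries and is among the peaks counted. The mean was 0.625 ± 0.916 in KO and 3.125 ± 1.25 in WT (SD, n = 8 each), a difference of −2.5 peaks. The exact permutation test within letters gave p = 4.08e-04, the smallest that its 4900 arrangements allow, with a Benjamini-Hochberg adjusted p = 0.0300 over 11990 windows. The difference was −2.5 peaks within either letter, each with an exact p = 0.0286, the smallest that 1 letter allows. At that p 388 windows (3.24%) were lower in replicate A and 27.8% of windows in replicate B. The replicate A lists overlapped in part, with 12639 to 21875 peaks in KO and 20136 to 27927 in WT, and were shorter at both ends in KO. The call was lost when any 1 of the 4 KO replicate B libraries was left out, with an adjusted p of up to 0.0648 and a difference of −2.5 in each.

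Of the 9 genes, 7 had on average at least 1 peak per library and were tested, which left out CCN2 and LATS2. All 7 were lower in KO, with a median difference of −3 peaks, beside a median of −1.62 over all windows, of which 97.7% were lower. The 1 of 7 that passed (CCN1) stands beside 16.7% of all windows called. At an unadjusted p under 0.05 there were 3 of 7 members (CCN1, AMOTL2 and AJUBA) and 46.2% of all windows. The shorter KO lists moved with these lower numbers.

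**Figure D2:**
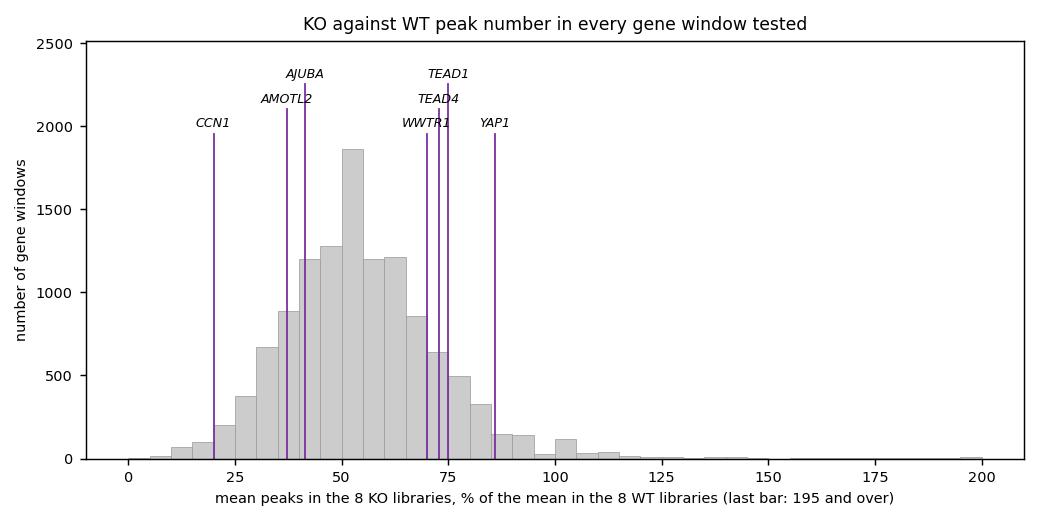
Distribution over 11990 gene windows of the mean peak number in KO as a percentage of that in WT (horizontal axis, % of WT; vertical axis, number of windows), with purple lines at the 7 genes that were tested. CCN1 lies at 20% and YAP1 at 85.9%, on either side of the median of all windows at 52.9%.

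AMOTL2 and AJUBA stood at 37.2% and 41.5% of WT in KO, under the median window, without passing the test. AMOTL2 had between 0 and 8 peaks in WT (median 6) and between 0 and 5 in KO (median 1), and the groups overlapped, with 0, 3 and 5 peaks in the 3 lowest WT libraries and 4, 4 and 5 in the 3 highest KO libraries. Its mean was 2 ± 2 in KO and 5.375 ± 2.72 in WT (SD, n = 8 each), with an exact permutation p = 0.0261 and an adjusted p = 0.0784. AJUBA had between 3 and 9 peaks in WT (median 7) and between 0 and 7 in KO (median 2.5). Its difference was −3.875 peaks, with an exact permutation p = 0.00980 and an adjusted p = 0.0532, just above the threshold. Leaving out WT esiCT OXPT B, the shortest WT list, gave adjusted p-values under 0.05 for AMOTL2 and AJUBA, while 50.7% of all windows were then called. The AJUBA window also holds PRMT5, HAUS4, C14orf93 and PSMB5, so that its peaks were not all those of AJUBA. LATS2 had 0 to 2 peaks in a library, in 7 of 8 WT and 3 of 8 KO libraries, and was not tested for the number of peaks.

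YAP1, WWTR1, TEAD1 and TEAD4 had mean peak numbers in KO of 70% to 85.9% of those in WT, above the median window, and none differed by the test. YAP1 had between 9 and 16 peaks in WT (median 13) and between 1 and 19 in KO (median 11), 85.9% of the WT mean, and 95.4% of all windows stood at a lower percentage. In replicate A it had 3 peaks more in KO (exact p = 0.171) and in replicate B 6.5 fewer (exact p = 0.0571), so the direction turned between the letters. WWTR1 stood at 70% of WT, TEAD4 at 72.7% and TEAD1 at 75%. Other genes also lie in these windows, TM4SF4, COMMD2 and ANKUB1 at WWTR1, TULP3 and TSPAN9 at TEAD4 and CFAP300 at YAP1. Of the merged peak regions, 4 of 17 at WWTR1 and 1 of 4 at TEAD4 lay at a start of another gene. The exact permutation p was 0.423 for YAP1, 0.0963 for WWTR1, 0.0759 for TEAD1 and 0.50 for TEAD4, none of which passed after adjustment.

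Counted per 1000 peaks of the library, CCN1, AMOTL2 and AJUBA had lower and YAP1, WWTR1, TEAD1 and TEAD4 higher means in KO, where all 7 had been lower by number. CCN1 had 0.0300 ± 0.0430 peaks per 1000 in KO and 0.145 ± 0.0487 in WT (SD, n = 8 each). The exact permutation p was again 4.08e-04, with an adjusted p = 0.0563, and replicates A and B differed by −0.102 and −0.127, each at an exact p = 0.0286, as 2.84% and 12.7% of windows were lower within these letters. YAP1 had 0.950 ± 0.318 per 1000 in KO and 0.590 ± 0.142 in WT, an exact permutation p = 0.00857. Its values were 0.306 higher in replicate A (exact p = 0.0571) and 0.414 higher in replicate B (exact p = 0.143). TEAD1 had 1.02 ± 0.365 in KO and 0.622 ± 0.101 in WT (exact permutation p = 0.00735), and WWTR1 had 0.657 ± 0.270 and 0.459 ± 0.0849 (exact permutation p = 0.0396). Within replicate B both were higher at an exact p = 0.0286, and within replicate A neither was (exact p = 0.514 and 0.743), where 2.2% and 2.26% of windows were higher at an unadjusted p under 0.05 in these letters. AJUBA was lower in KO, at 0.195 ± 0.106 against 0.298 ± 0.0652 (exact permutation p = 0.0392). AMOTL2 and TEAD4 differed by −0.0451 and 0.00794, within the spread of their libraries (exact permutation p = 0.586 and 0.776). The adjusted p lay above 0.05 for all 7 and for every other window. On this scale 15.9% of windows were lower and 3.44% higher in KO at an unadjusted p under 0.05, and the median over all windows was −0.0253. YAP1, TEAD1 and WWTR1 also carried the highest folds of the 9 genes, and the part of fold and list length in these values was not tested on this scale.

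**Figure D3:**
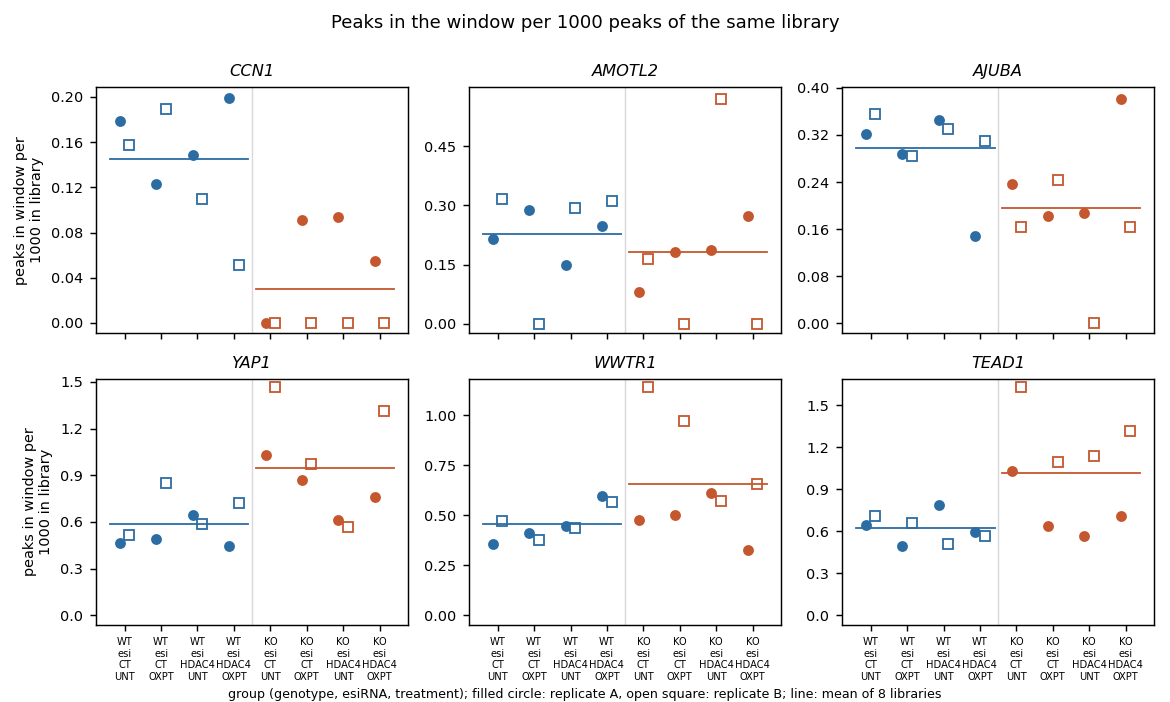
Peaks in the window per 1000 peaks of the same library (vertical axis) for 6 genes by group (horizontal axis), with filled circles for replicate A, open squares for replicate B and lines at the mean of 8 libraries. The KO mean of CCN1 was 0.0300 against 0.145 in WT, whereas the KO mean of YAP1 was 0.950 against 0.590 in WT.

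A comparison at equal list length kept the strongest 1752 peaks by q-value of each library, as many as the shortest list held. In these short lists YAP1 had 2, 0, 1, 0, 1, 2, 1 and 1 peaks in WT and 3, 3, 4, 3, 3, 1, 2 and 2 in KO, in the order esiCT UNT, esiCT OXPT, esiHDAC4 UNT and esiHDAC4 OXPT, A before B. Its mean was 2.625 ± 0.916 in KO and 1 ± 0.756 in WT, with differences of 1.75 and 1.5 within replicates A and B (SD, n = 8 each; exact permutation p = 0.00612, adjusted p = 0.272 over 933 windows). Of those windows, 6% were higher and 4.61% lower in KO at an unadjusted p under 0.05, and 0 passed after adjustment. TEAD1 had 2.125 peaks in both genotypes and WWTR1 1.75 in KO and 1.625 in WT. CCN1, CCN2 and LATS2 had none among the strongest peaks of any library.

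Start-site peaks were called in fewer KO than WT libraries at 8 of the 9 genes, and in no library at CCN2. The share of all genes with fewer KO start-site calls was not counted, and 97.7% of all windows tested were lower in KO by peak number. A peak within 1 kb of a start of CCN1 was called in 5 libraries, all WT, with folds of 6.01, 2.12, 5.15, 4.30 and 5.05, and in 0 of 8 KO libraries. The region (chr1:85580794-85581832, over the start and first part of the gene) had an exact permutation p = 0.0143 and an adjusted p = 0.258. AMOTL2 had a start-site peak in 7 WT and 4 KO libraries, LATS2 in 6 and 3, TEAD1 in 7 and 3, and AJUBA in 7 and 5. YAP1 had one in all 8 WT and in 7 KO libraries, with a median fold of 5.89 in WT and 7.16 in KO. The main start-site regions were chr3:134373028-134375893 at AMOTL2, chr13:21060092-21062468 at LATS2, chr14:22979274-22983732 at AJUBA, chr11:102107700-102116827 at YAP1, chr11:12673553-12676826 at TEAD1 and chr12:2957839-2959194 at TEAD4. The TEAD4 region was called in 7 WT and 2 KO libraries (exact permutation p = 0.0469, adjusted p = 0.344). The adjacent start region at chr12:2959393-2960547 was called in 3 WT and 3 KO libraries (exact permutation p = 1), and TEAD4 as a gene had a start-site peak in 7 WT and 4 KO libraries. KO esiHDAC4 UNT B, the library with the shortest list, had a start-site peak at 0 of the 9 genes. All 4 start-site peaks of AMOTL2 in KO, and the 3 of LATS2 and of TEAD1, came from replicate A, the letter with the longer KO lists.

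**Figure D4:**
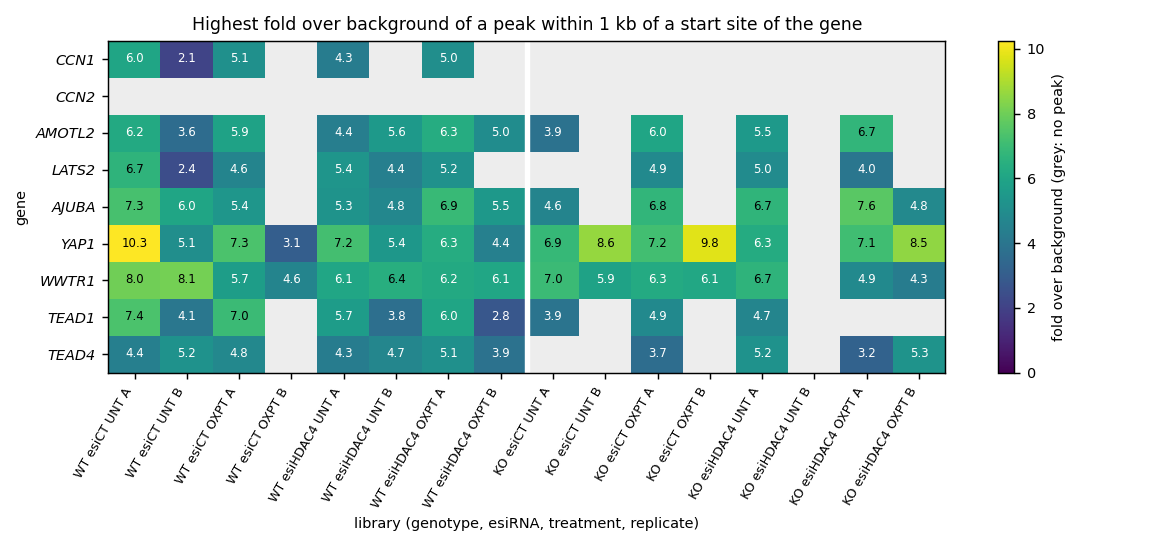
Highest fold over background of a peak within 1 kb of a start of each gene (rows) in each of the 16 libraries (columns), with grey where no peak was called. CCN1 was called in 5 WT and 0 KO libraries and YAP1 in 15 of the 16, up to a fold of 10.3.

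Summit folds were compared where a gene had a peak in all 16 libraries, on the log2 scale after subtracting the median of the library over the 1166 windows with a peak in all. YAP1 had highest folds of 5.30 to 10.3 in WT (median 6.76) and 4.77 to 9.77 in KO (median 7.13). Its centred log2 fold was 0.34 ± 0.34 in KO and 0.08 ± 0.28 in WT (SD, n = 8 each; exact permutation p = 0.125). Within replicate A it differed by −0.05 and within replicate B by 0.57, so the letters did not share a direction. TEAD1 differed by 0.21 (exact permutation p = 0.0804) and WWTR1 by −0.01 (exact permutation p = 0.840). None of the 3 passed after adjustment, where 0.858% of the 1166 windows did, and no member but 14.7% of windows had an unadjusted exact p under 0.05.

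Merged over the libraries, the 9 windows held 119 peak regions of 58860 in the genome, of which 57 were called in 1 library and 2 in all 16. The first of these 2 lay in WWTR1 (chr3:149571031-149584540, inside the gene at an inner start), with folds of 4.60 to 8.11. The second lay in an intron of TEAD1 (chr11:12690745-12698519), about 20.2 kb from the start, with folds of 3.83 to 10.1. The outer regions were less constant. The WWTR1 start region at chr3:149656321-149659477 was called in 7 WT and 4 KO libraries and the TEAD1 start region in 7 and 3. A further TEAD1 intron region, called in 15 libraries, is printed because it held GGAATG within the 300 bases around its median summit, as 14.9% of all 58860 regions and 22 of the 119 did. TGANTCA was in 8.16% of all regions and in 18 of the 119.
TEAD1 intron region, bases around the summit (chr11:12724967-12725266, plus strand, GGAATG in capitals): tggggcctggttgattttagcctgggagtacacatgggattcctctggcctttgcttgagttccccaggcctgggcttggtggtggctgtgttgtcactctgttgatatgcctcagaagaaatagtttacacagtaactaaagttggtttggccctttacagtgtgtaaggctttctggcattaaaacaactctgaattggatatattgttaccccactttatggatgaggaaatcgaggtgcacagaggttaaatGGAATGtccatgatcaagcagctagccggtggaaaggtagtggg

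Presence was tested for the 44 member regions called in 3 to 13 libraries. Of these, 37 were called in more WT and 4 in more KO libraries. At an unadjusted exact p under 0.05, 8 were more frequent in WT and 1 in KO, beside 13.6% and 0.0747% of the 20090 regions tested in the genome. After adjustment 0 of 44 and 0% of all regions passed in each of the 3 comparisons. The smallest p for KO against WT came from a region about 62.7 kb downstream of the AMOTL2 start (chr3:134312325-134313290, outside exons), called in 6 WT libraries with folds of 3.35 to 7.08 and in no KO library (exact permutation p = 0.00612, adjusted p = 0.258). The next was a region at a start of C14orf93 in the AJUBA window (chr14:23007322-23007967), with 6 WT and 0 KO libraries (exact permutation p = 0.0102). The CCN1 region called most often, 48.2 kb downstream of the gene start (chr1:85627785-85630149), was in all 8 WT and in 3 KO libraries, each of them replicate A (exact permutation p = 0.0143). The bases around the summit of the AMOTL2 region are shown since it had the smallest p of the 44, and they held neither motif.
AMOTL2 downstream region (chr3:134312686-134312985, plus strand): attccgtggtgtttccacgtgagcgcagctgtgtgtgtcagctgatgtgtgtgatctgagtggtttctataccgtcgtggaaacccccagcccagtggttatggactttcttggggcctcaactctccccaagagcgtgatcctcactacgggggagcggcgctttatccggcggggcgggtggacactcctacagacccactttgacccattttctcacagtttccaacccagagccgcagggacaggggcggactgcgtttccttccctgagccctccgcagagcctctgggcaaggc

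The region more frequent in KO lay in an intron of YAP1 (chr11:102196670-102198953), 87.4 kb from the start, and was singled out after its values were seen. It was called in 7 of 8 KO libraries, with folds of 5.63, 5.96, 4.95, 5.87, 4.77, 3.74 and 3.64, and in 1 WT library with a fold of 3.15. KO esiCT OXPT B was the KO library without it. KO esiHDAC4 UNT B, which had 1 peak in the YAP1 window, had it here. The exact permutation p was 0.0135 and the adjusted p 0.258, and only 15 regions of 20090 were more frequent in KO at an unadjusted p under 0.05. The 300 bases around its summit held neither GGAATG nor TGANTCA.
YAP1 intron region (chr11:102197265-102197564, plus strand): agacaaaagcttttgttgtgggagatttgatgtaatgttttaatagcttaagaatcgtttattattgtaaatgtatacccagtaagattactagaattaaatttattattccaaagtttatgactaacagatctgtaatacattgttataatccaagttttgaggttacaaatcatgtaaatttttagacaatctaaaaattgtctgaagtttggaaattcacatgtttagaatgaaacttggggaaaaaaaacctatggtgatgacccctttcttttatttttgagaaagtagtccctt

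**Figure D5:**
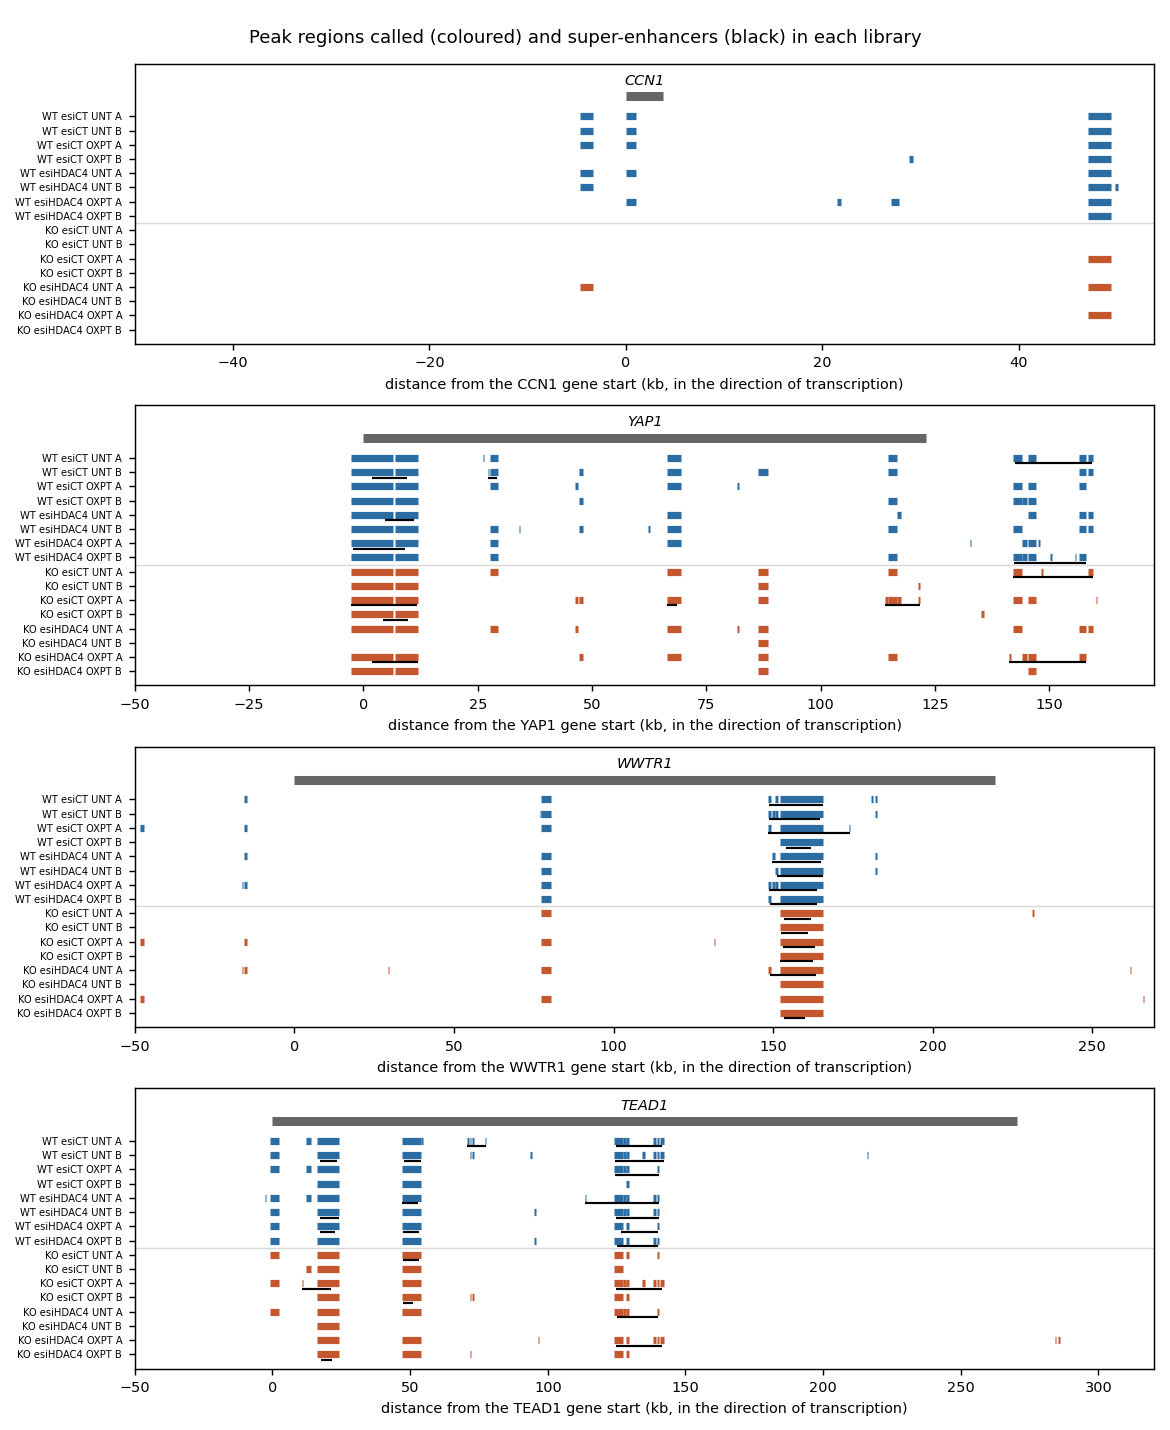
Merged peak regions called (coloured bars, WT blue and KO orange) and SEs (black lines) in each of the 16 libraries (rows) along the windows of CCN1, YAP1, WWTR1 and TEAD1 (horizontal axis, kb from the gene start in the direction of transcription; grey bar, gene body). The YAP1 intron region 87.4 kb from the start was called in 7 KO and 1 WT libraries, and the WWTR1 region 159 kb from the start in all 16.

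SEs were called at WWTR1, TEAD1, YAP1 and AMOTL2. The SE lists also differed in length, from 66 in KO esiHDAC4 UNT B to 1265 in WT esiCT UNT B. A gene without an SE in a short list was not detected there. WWTR1 had an SE in 14 of 16 libraries, all 8 WT and 6 KO, and lacked it in KO esiHDAC4 UNT B and KO esiHDAC4 OXPT A. Only 0.819% of all gene windows had one in 14 or more libraries. The WWTR1 SE lay over the inner start and spanned 6.62 to 25.8 kb. TEAD1 had an SE in 13 libraries, 7 WT and 6 KO, most often within the gene at chr11:12787946-12816468, where 7 WT and 3 KO libraries had one. YAP1 had an SE in 9 libraries, 5 WT and 4 KO. It lay at or just inside the YAP1 start (chr11:102107700-102122393) in 3 WT and 3 KO libraries, where its first base was −2.747 to 4.614 kb from the start. Downstream of the gene it lay in 2 WT and 2 KO libraries, and 3 further sites were called in 1 library each. AMOTL2 had an SE in both WT esiCT UNT libraries, of 17.1 kb and 15.4 kb, and in no other library. Those lists held 758 and 1265 SEs, and the part of SE list length in these calls was not tested. CCN1, CCN2, LATS2, AJUBA and TEAD4 had none, as 84.8% of all windows had none in any library. Only YAP1 and TEAD1, called in 3 to 13 libraries, were tested, and the exact permutation p was 1 for both in the 3 comparisons. Of 1444 windows 0 (0%) passed after adjustment in any of them, and at an unadjusted exact p under 0.05 there were 5.19% by genotype, 0.346% by OXPT and 0.208% by esiRNA, with no member among them. The study considered SEs that also carried H3K4me1, and whether the deposited lists had passed this filter is not stated.

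OXPT changed the peak number of no member by the test. The test pooled WT and KO libraries, so responses in opposite directions could cancel. The differences of OXPT from UNT over 8 libraries each ran from −2.125 at TEAD1 (exact permutation p = 0.309) to 0.25 at YAP1 (exact permutation p = 0.949), and that at CCN1 was −0.5 (exact permutation p = 0.649). Among all windows 0 (0%) passed after adjustment with the exact permutation test, and 107 (0.892%) had an unadjusted p under 0.05, with no member among them. YAP1 had a centred log2 summit fold of 0.35 ± 0.25 with OXPT and 0.08 ± 0.35 without (SD, n = 8 each; exact permutation p = 0.103). Within replicate A it differed by 0.07 and within replicate B by 0.48, and 0 of 3 members and 0% of windows passed after adjustment, with 7.12% of the 1166 windows at an unadjusted exact p under 0.05. The differences of WWTR1 and TEAD1 on that scale were −0.05 and 0.04.

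Downstream of YAP1, a pair of nearby regions differed in opposite directions with OXPT at an unadjusted p under 0.05. The region at chr11:102255684-102257578, 146 kb from the YAP1 start, was called in 7 OXPT and 2 UNT libraries, with folds of 4.93, 5.39, 4.51, 7.20, 6.37, 4.44 and 4.37 under OXPT and of 3.01 and 3.70 in UNT (exact permutation p = 0.0306). The region at chr11:102268986-102270055, 159 kb from the start, was called in 6 UNT and 0 OXPT libraries, with folds of 2.79, 5.30, 4.38, 3.62, 4.91 and 3.52 (exact permutation p = 0.00612). The adjusted p was 1 for both, and 2.12% of the 20090 regions had an unadjusted p under 0.05 in this comparison, 1.43% more and 0.692% less often called with OXPT. An SE covered the first region in 2 UNT and 2 OXPT libraries. The 2 UNT SEs reached into the second region, ending at 102269680 and 102270022. The 2 OXPT SEs ended before it, at 102268565 and 102268489. The bases of the second region are shown because the 300 around its summit held TGANTCA, in capitals.
YAP1 downstream region (chr11:102269091-102269390, plus strand): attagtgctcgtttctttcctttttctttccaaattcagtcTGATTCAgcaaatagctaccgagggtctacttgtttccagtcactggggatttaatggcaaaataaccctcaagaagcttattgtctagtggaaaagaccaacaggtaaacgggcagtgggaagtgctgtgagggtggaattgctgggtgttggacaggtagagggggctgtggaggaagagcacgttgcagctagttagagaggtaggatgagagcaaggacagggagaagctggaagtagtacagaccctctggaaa

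Silencing of HDAC4 changed no member by the test either, which again pooled WT and KO libraries. The differences of esiHDAC4 from esiCT ran from −1.625 peaks at TEAD1 (exact permutation p = 0.452) to 0.625 at AMOTL2 (exact permutation p = 0.743), and CCN1 differed by −0.25 (exact permutation p = 0.878). With the exact permutation test 0 windows (0%) passed after adjustment and 22 (0.183%) had an unadjusted p under 0.05, no member among them. The centred log2 summit fold of TEAD1 was 0.11 ± 0.13 with esiHDAC4 and 0.31 ± 0.29 with esiCT (SD, n = 8 each; exact permutation p = 0.0922), and 0 of 3 members and 0% of windows passed after adjustment, with 3.17% of windows at an unadjusted exact p under 0.05. None of the 44 member regions reached an unadjusted p under 0.05, beside 0.219% of all regions. The smallest was an exact permutation p = 0.143 at a region of the HAUS4 start in the AJUBA window, called in 3 esiCT and 0 esiHDAC4 libraries. The 2 peaks at CCN2 both came from esiHDAC4 libraries of WT cells.

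Other genes of the pathway were read from lists of 44 genes, chosen from general knowledge with earlier results of these data known. Of these, 32 passed the filter on peak number, and all 32 were lower in KO, with a median difference of −2.12 peaks beside −1.62 over all windows. By group, 4 of 17 tested upstream and core genes, 0 of 4 partners of YAP and TEAD and 4 of 11 textbook YAP/TAZ targets passed after adjustment, which makes 8 of 32 (16.7% of all windows). ASAP1, an Arf GTPase-activating protein and textbook target, had 1.62 ± 1.69 peaks in KO and 6.25 ± 2.19 in WT (SD, n = 8 each; exact permutation p = 4.08e-04). Replicates A and B differed by −4.25 and −5, each at an exact p = 0.0286. SAV1, the scaffold of the Hippo kinases, differed by −2.875 peaks and CCDC80, a matrix protein gene, by −1.75 (exact permutation p = 8.16e-04 each). PTPN14, a phosphatase that binds YAP, differed by −5.125 (exact permutation p = 0.00122). For OXPT and for esiHDAC4, 0 of the 32 passed and 0 had an unadjusted exact p under 0.05. MYOF, a membrane protein gene among the targets, was the 1 gene of the lists with a peak in all 16 libraries, and its centred log2 fold was 0.25 lower in KO (exact permutation p = 0.0106, adjusted p = 0.177).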

How the data were processed

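Per the submitters' processing notes, the tools were Trimmomatic 0.39, Bowtie2 2.4.4 (hg38), SAMtools 1.18 and MACS2 2.2.7.1. The authors called narrow peaks per library and joined enhancers into SEs with ROSE. The sources used here do not state whether inputs served as controls, and 4 input samples were not analysed here. In the deposited peak lists the fold is the ratio of summit to local background, p-values and q-values are −log10 values, and the score is an integer made from them. The deposited SE lists hold positions only.

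Peaks on chromosomes 1 to 22, X and Y were counted in windows of GENCODE version 44 genes (533 of 272083 peaks lay on other contigs). Two-sided exact permutation tests exchanged labels within replicate letters, following the study's use of replicate in its design, with Benjamini-Hochberg adjustment over all windows or regions and a threshold of 0.05. Windows with a mean of at least 1 peak, or regions called in 3 to 13 libraries, were tested. The test was checked on simulated data in which library sizes did not follow the labels. In the real lists length followed genotype, so this check does not cover that difference between KO and WT. Other pathway genes named were the at most 4 per comparison with the smallest p under 0.05, and regions named were those at start sites, those called most often and the 2 with the smallest p per comparison. A planned search for genes most like CCN1 and CCN2 could not be applied, since neither had a peak in all libraries. The 9 genes, the lists and the tests were chosen with earlier results of these data known. One of the marker genes is not reported here. The study calls its libraries biological replicates, while the labels say that 3 experiments were combined, so p-values measure the spread between these libraries. Python 3.11.15, NumPy 2.4.6 and pandas 2.3.3 were used.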

Additional observations from a re-analysis of the deposited data

Results flagged for a closer look

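Each result here has both WT pairs moving one way and both KO pairs the other, with pairs formed by replicate letter, and the difference between the genotypes was not tested. The results were picked for this pattern among all members, and the share of all gene windows with such a split is not known here. Under esiCT, OXPT moved the AJUBA peak number by −2 and −6 in WT and by 1 and 1 in KO, so the mean KO effect was 5 peaks above the mean WT effect. The log2 highest fold of AJUBA moved by −0.43 and −0.27 in WT and by 0.54 and 0.33 in KO, a gap of 0.79. That of TEAD1 moved by −0.13 and −1.01 in WT and by 0.03 and 0.48 in KO, a gap of 0.83. Neither fold was centred on its library. The library medians of log2 highest fold (A and B) were 3.01 and 2.80 in WT esiCT UNT. With OXPT they were 2.59 and 2.35. In KO esiCT they were 2.60 and 2.41 in UNT and 2.69 and 2.50 with OXPT. With these medians subtracted, the WT pairs of either gene no longer moved the same way. Under esiHDAC4, OXPT moved the AJUBA peak number by −4 and −3 in WT and by 3 and 1 in KO, a gap of 5.5. It moved the YAP1 peak number by −4 and −2 in WT and by 1 and 7 in KO, a gap of 7, and the TEAD1 peak number by −4 and −3 in WT and by 1 and 6 in KO, a gap of 7. Under OXPT, esiHDAC4 moved the WWTR1 peak number by 2 and 7 in WT and by −5 and −4 in KO, a gap of −9. Peak lists were shorter with OXPT in all 4 WT pairs, and KO esiHDAC4 UNT B, the untreated library behind the KO values of 7 and 6, had the shortest list. Under esiCT the KO lists were longer with OXPT, by 9236 and 2090 peaks. Under esiHDAC4, OXPT changed the KO lists by −2947 peaks in A and 4332 in B. Under OXPT, esiHDAC4 changed the KO lists by −3532 and −2132 peaks and the WT lists by −4210 and 8790. Per 1000 peaks, AJUBA under esiHDAC4 and WWTR1 kept the split. AJUBA under esiCT lost it, falling with OXPT from 0.237 to 0.183 in KO A. YAP1 and TEAD1 under esiHDAC4 lost it, rising in WT B from 0.585 to 0.723 and from 0.512 to 0.568. The part of list length in these values was not tested.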

How the results depend on the processing

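The call at CCN1 (1 member for KO against WT peak number) was the result that depended on the processing. The number of members called was 0 for peaks with −log10 q of at least 10, lists of equal length, a fold of at least 4 (chosen after seeing the data), values per 1000 peaks, gene body plus 10 kb, gene body alone, and replicate letter A or B alone, where 1 letter cannot pass the adjustment. In the q-value, equal-length, fold, 10 kb and gene-body settings CCN1 had a mean below 1 peak and was not tested. Among 609 windows by q-value, 933 at equal length and 11990 per 1000 peaks, 0 (0%) passed. With no replicate block it was also 0, with CCN1 at an exact permutation p = 0.00186 and an adjusted p = 0.0741. Leaving out 1 library gave 0 to 4 members called. It gave 0 without any 1 of the 4 KO replicate B libraries, 2 without WT esiHDAC4 UNT A, WT esiHDAC4 OXPT A or B, KO esiCT OXPT A or KO esiHDAC4 OXPT A, and 4 (CCN1, AMOTL2, AJUBA and TEAD1) without WT esiCT OXPT B. The difference at CCN1 stayed between −2.75 and −2.25 in these runs. Under each alternative run, the other 11 comparisons gave 0 members or regions called. No called result reversed, but members without a call turned for KO against WT: YAP1 from −1.75 peaks to 0.36 per 1000 peaks, 1.625 at equal list length and 3 in letter A, TEAD1 from −3.375 to 0.393 per 1000, WWTR1 from −3 to 0.199 per 1000 and 0.125 at equal length, and TEAD4 from −0.375 to 0.00794 per 1000. The replicate letters were not shown to pair the libraries. Over 28 pairs of groups, the correlation of same-letter deviations ran from −0.00687 to 0.350, with 16 above 0.1. The read depth of each library is unknown, and CCN1, CCN2 and LATS2 had no peak among the strongest 1752 of any library.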
